A study of Rattus norvegicus with 20 samples.

Results

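The 10 genes described here are standard transcripts of dividing cells: Mki67, Top2a, Ccnb1, Cdk1, Birc5, Bub1, Aurkb, Cenpf, Mcm2 and Pcna. They were picked by symbol from the 30443 genes of the deposited table, and each symbol occurred in it 1 time. Earlier results of these data were known when the genes were chosen. RNA was sequenced from 5 regions of 4 female wild-type Long-Evans rats of 6 to 8 months, which made 20 libraries. All 4 rats, controls included, received a hemicontusion at cervical level 4 with a displacement of 0.7 mm, and 2 weeks later an electrode array in the motor cortex opposite the lesion. After 1 further week, the 2 stimulated rats received 1 week of stimulation at 10 Hz and 80% of the movement threshold for 5 hours per day, while the 2 control rats were connected without current. Tissue was therefore taken about 4 weeks after the injury, and no uninjured or unimplanted rat was part of the groups.

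Region 1 was a block of subcortical white matter under the electrodes, and region 2 was its counterpart in the other hemisphere. Region 3 was cord rostral to the lesion, region 4 the lesion epicenter and region 5 the cord caudal to it. Each region had 4 libraries, 2 from stimulated and 2 from control animals, so that a comparison of stimulated with control animals set 2 against 2. Levels are FPKM, in which fragment numbers are scaled to the length of the transcript and to the mapped reads of the library, so that they can be compared between genes. The lowest value in the table is 0.1, and a gene at 0.1 is described below as listed at that floor. The table gives no read counts, so the depth behind a low value is unknown.

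A cell that divides copies its DNA in S phase and separates the copies in mitosis. Mcm2, a subunit of the MCM helicase, and Pcna, the sliding clamp of DNA polymerase, act in DNA replication, and Pcna also serves in DNA repair. Cdk1 with its cyclin Ccnb1 drives entry into mitosis. Top2a untangles the copied chromosomes, and Mki67 coats them. Aurkb and Birc5 (survivin) belong to the chromosomal passenger complex, while Bub1 and Cenpf act at the kinetochore, where Bub1 serves the spindle checkpoint. In the adult nervous system most neurons do not divide, whereas microglia, infiltrating leukocytes, oligodendrocyte progenitors and astrocytes near a lesion can. These are bulk samples, in which fewer cells of a type and less RNA per cell cannot be told apart.

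The libraries of stimulated animal 2 from regions 1 and 2 stood apart from the other 3 animals. In those libraries 10 of the 10 genes were higher than in any other animal of the same region, against 24.2% of all genes tested in region 1 and 43.9% in region 2. Marker genes moved with them. The summed FPKM of 12 genes of microglia and macrophages was 913 in region 1 of this animal and between 225 and 382 in the others, and in region 2 it was 621 and between 84.4 and 108. The summed FPKM of 8 lymphocyte genes was 48.7 in region 1 and 27.5 in region 2 of this animal, while the highest value in the other animals was 14.2 in region 1 and 2.67 in region 2. Only 5 of these 8 genes reached 1 FPKM in any library. Cd3e, a defining gene of T cells, was at 1.28 in region 1 of stimulated animal 2, a small part of the sum of 48.7. It was at no more than 0.215 in the white matter of the other animals. The part of each other gene in these sums is not given here. The 5 neutrophil genes together reached 119 in region 1 of this animal against at most 3.01, although Mpo was at the floor. Their part in the results on the 10 genes was not tested, and the comparisons of these genes are given with and without this animal. The animal was set apart by these same genes, so calls and p-values without it are descriptive and not independent tests.

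The region labels were checked against markers. Genes of oligodendrocytes summed to 734 to 3046 FPKM in the white matter blocks and to 7508 to 10907 in the cord. Slc17a7, the vesicular glutamate transporter of cortical neurons, was at 225 to 329 FPKM in the 8 white matter libraries, so that these blocks also held RNA of cortical neurons, although the labels name their tissue subcortical white matter. In the 12 cord libraries Slc17a7 did not exceed 11.8 FPKM.

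Many promoters of mitotic genes carry a short element called the cell cycle genes homology region (CHR), bound by the DREAM complex, together with CCAAT boxes bound by NF-Y, and promoters of replication genes often carry E2F sites. Promoter sequences from RefSeq (GRCr8, from 250 bases before to 50 after the annotated start) had an entry for 9 of the 10 genes; Aurkb had none. Both strands were searched for CHR (TTTGAA or TTTAAA), for CCAAT and for E2F sites (TTTCGCGC or TTTGGCGC). CHR letters were in 8 of the 9 promoters and in 28.25% of all 33469 promoters of this length. CCAAT was in 7 of the 9 and in 37.5% of all. E2F letters were in 2 of the 9, Cdk1 and Mcm2, and in 0.792% of all. CHR and CCAAT occurred together in 6 of the 9 and in 11.3% of all. TTTAAA reads the same on both strands. The 5 promoters below were chosen because Mki67 and Birc5 passed the test at the lesion, Top2a had the largest difference there, Mcm2 carries the E2F letters, and Pcna is the gene without CHR. Capitals mark the matches. A match is only a string of letters in this window, and the FPKM values themselves were made on another build, Rnor6.

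The Mki67 window is chr1:199952544-199952843, minus strand, with TTTGAA beginning 117 and 99 bases before the start, the second overlapping a CCAAT on the other strand. It holds 4 CCAAT boxes in all. The Birc5 window is chr10:103571896-103572195, plus strand, with TTTGAA 8 bases and CCAAT 213 bases before the start. The Top2a window is chr10:84473044-84473343, minus strand, with TTTGAA on the other strand 22 bases before the start and 4 CCAAT boxes. The Mcm2 window is chr4:122918045-122918344, minus strand, where TTTCGCGC matched on both strands at positions 14 and 10 bases before the start and the matches overlap. TTTGAA also begins there 215 and 175 bases before the start. The Pcna window is chr3:139955771-139956070, minus strand, with 1 CCAAT box.
Mki67: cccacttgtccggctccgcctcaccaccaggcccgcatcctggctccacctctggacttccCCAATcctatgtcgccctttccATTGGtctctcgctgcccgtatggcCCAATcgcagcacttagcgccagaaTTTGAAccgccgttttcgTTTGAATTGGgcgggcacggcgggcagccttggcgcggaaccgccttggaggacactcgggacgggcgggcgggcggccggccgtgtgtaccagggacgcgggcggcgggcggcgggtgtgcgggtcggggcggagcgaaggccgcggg
Birc5: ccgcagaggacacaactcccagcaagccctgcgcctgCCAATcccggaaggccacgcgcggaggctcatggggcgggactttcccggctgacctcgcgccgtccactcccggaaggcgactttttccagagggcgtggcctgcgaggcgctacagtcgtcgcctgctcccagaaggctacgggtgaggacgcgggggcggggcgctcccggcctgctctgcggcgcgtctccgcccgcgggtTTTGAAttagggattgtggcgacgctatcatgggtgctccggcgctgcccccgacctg
Top2a: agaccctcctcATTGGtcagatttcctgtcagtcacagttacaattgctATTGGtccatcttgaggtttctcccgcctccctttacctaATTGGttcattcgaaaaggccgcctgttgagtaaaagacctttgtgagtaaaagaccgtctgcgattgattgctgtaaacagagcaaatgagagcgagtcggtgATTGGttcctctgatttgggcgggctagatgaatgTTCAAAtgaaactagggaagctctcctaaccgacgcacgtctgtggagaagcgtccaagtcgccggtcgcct
Mcm2: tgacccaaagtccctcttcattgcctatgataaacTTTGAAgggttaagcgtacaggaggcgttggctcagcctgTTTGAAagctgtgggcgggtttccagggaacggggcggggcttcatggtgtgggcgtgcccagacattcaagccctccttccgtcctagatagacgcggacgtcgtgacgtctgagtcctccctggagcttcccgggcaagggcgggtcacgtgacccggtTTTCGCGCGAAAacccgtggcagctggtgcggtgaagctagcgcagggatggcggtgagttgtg
Pcna: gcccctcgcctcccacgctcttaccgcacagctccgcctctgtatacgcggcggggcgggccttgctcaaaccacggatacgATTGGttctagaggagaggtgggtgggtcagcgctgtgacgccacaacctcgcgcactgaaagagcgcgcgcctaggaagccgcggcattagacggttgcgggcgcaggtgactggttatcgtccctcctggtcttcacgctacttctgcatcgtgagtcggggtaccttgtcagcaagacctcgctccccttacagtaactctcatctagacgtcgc

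With the exception of Pcna, the genes were expressed at low levels. The mean of Pcna over the 20 libraries was 23.2 FPKM, at percentile 86.0 of the genes tested, and no other member had a mean above that of Mcm2, 2.02 FPKM. Bub1 had the lowest mean of the genes tested, 0.616 FPKM, at percentile 4.37. Cenpf never exceeded 0.770 FPKM. It therefore did not pass the filter of at least 1 FPKM in 1 library or more, so 9 of the 10 genes were tested among 15210. Top2a was listed at the floor in 2 libraries, Cdk1 in 3 and Cenpf in 4. RefSeq also lists pseudogenes of Mki67, Cdk1, Mcm2 and Pcna, and how reads were shared between gene and copy is not given in the sources used here.

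Region 4, the lesion, had the highest mean log2 level for 9 of the 10 genes, and region 5 the highest for Pcna. The second place was taken by region 5 for 8 genes, by region 1 for Ccnb1 and by region 4 for Pcna. Region 2 was lowest for Mki67, Top2a, Cdk1, Bub1, Aurkb, Mcm2 and Pcna, and region 3 for Ccnb1, Birc5 and Cenpf. Neighbours in this order were mostly not told apart by the test. Of 36 neighbouring region pairs over the 9 genes tested, limma called 1, Pcna in region 3 above region 1 (adjusted p = 0.018). With 4 libraries per region, a pair that was not called is not shown to be level.

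**Figure D1:**
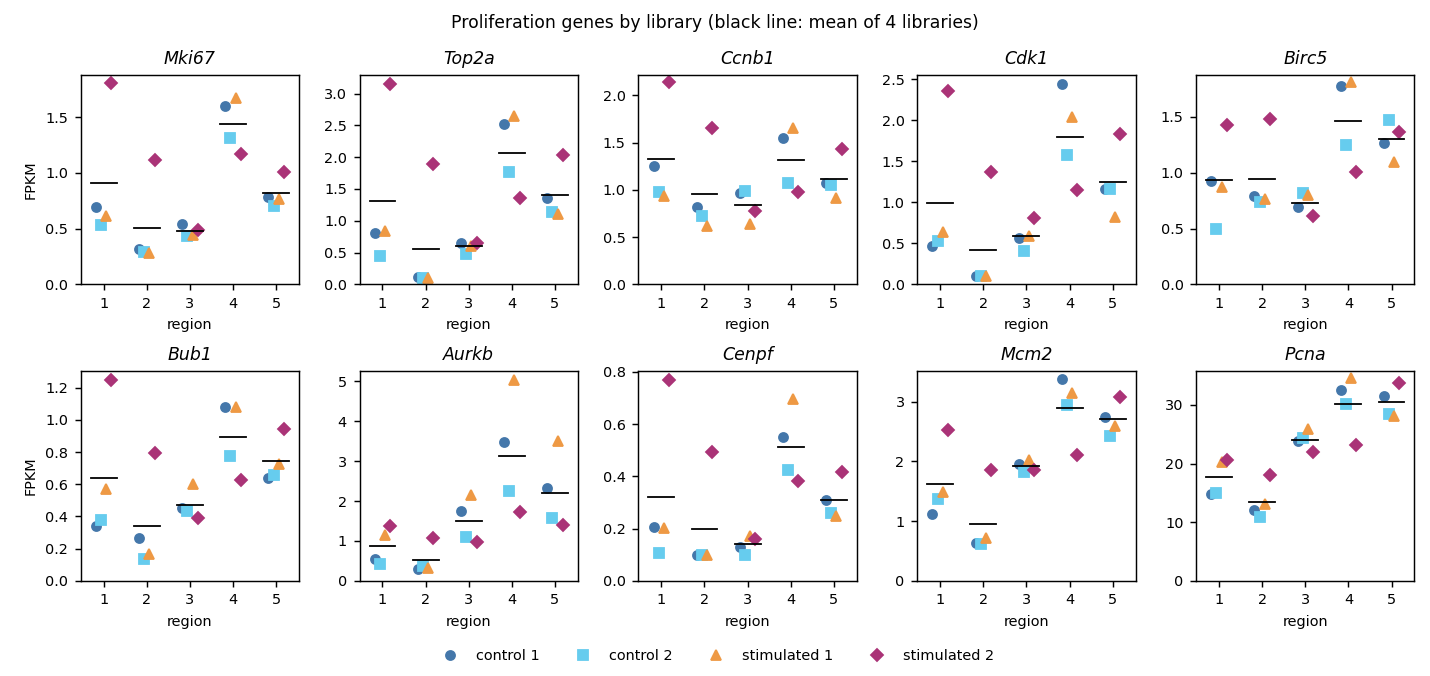
FPKM of each of the 10 genes (vertical axis, from 0, scaled for each gene) in the 5 regions (horizontal axis), with 1 point per library, colour and shape giving the animal, and a black line at the mean of 4 libraries. Region 4 has the highest points for most genes in 3 of the 4 animals, while stimulated animal 2 (diamonds) is highest of the 4 animals for 10 of 10 genes in regions 1 and 2 and lowest for 10 of 10 in region 4.

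The comparison of the lesion with the rostral cord asks which genes of dividing cells were higher at the injury site than above it. Mki67 and Birc5 were higher at the lesion, and the other 7 genes tested were also higher on average but did not pass the threshold. Mki67, the most used marker of cycling cells, was at 1.60 and 1.31 FPKM in region 4 of control animals 1 and 2 and at 1.68 and 1.17 in stimulated animals 1 and 2. In region 3 it was at 0.542, 0.433, 0.444 and 0.488 in the same order. The groups did not overlap, and stimulated animal 2 had the lowest lesion value. The difference was 1.58 on the log2 scale (SE 0.39, n = 4 per region), 3.00-fold, with a limma adjusted p of 0.00886. Birc5, which keeps Aurkb at the centromere, was at 1.78, 1.25, 1.81 and 1.01 FPKM in region 4 and at 0.689, 0.821, 0.796 and 0.610 in region 3. Here too every lesion library was above every rostral one. The log2 difference was 0.97 (SE 0.28, limma adjusted p = 0.0221).

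Top2a was at 2.52, 1.77, 2.64 and 1.36 FPKM at the lesion and at 0.657, 0.482, 0.604 and 0.642 in the rostral cord. The log2 difference of 1.76 was the largest of the 9 genes, but its SE was 0.72 and the limma adjusted p 0.0917. Cdk1 was at 2.44, 1.57, 2.04 and 1.15 FPKM at the lesion and at 0.570, 0.401, 0.585 and 0.804 in the rostral cord. Its log2 difference was 1.60 (SE 0.67, limma adjusted p = 0.0987). In both genes the groups did not overlap, and stimulated animal 2 again had the lowest lesion value. The SEs of these genes come from 1 estimate of the spread over all 5 regions, which includes the spread in the white matter.

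Bub1 was at 1.08, 0.775, 1.08 and 0.628 FPKM at the lesion and at 0.454, 0.434, 0.600 and 0.389 in the rostral cord. Aurkb, the kinase of the passenger complex, was at 3.48, 2.25, 5.03 and 1.72 FPKM at the lesion and at 1.75, 1.10, 2.15 and 0.984 above it. Aurkb differed between animals more than the other genes did, and its 2 groups overlapped, while the animals had the same order in both regions. Its log2 difference was 1.02 (SE 0.46, limma adjusted p = 0.124). The replication genes differed by less, and neither passed the threshold. Mcm2 was at 3.38, 2.94, 3.15 and 2.1 FPKM at the lesion and between 1.83 and 2.02 above it. Pcna was at 32.5, 30.2, 34.6 and 23.3 FPKM at the lesion and at 23.8, 24.4, 26.0 and 21.9 above it, a log2 difference of 0.31 (SE 0.15, limma adjusted p = 0.149). Ccnb1, the mitotic cyclin, overlapped between the regions, at 1.55, 1.08, 1.65 and 0.981 FPKM against 0.970, 0.984, 0.642 and 0.777.

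Cenpf, which was too low for the test, was at 0.550, 0.424, 0.697 and 0.382 FPKM at the lesion and at 0.130, 0.1, 0.169 and 0.159 in the rostral cord, and its groups did not overlap. Fitted with no filter on low values, its log2 difference was 1.87 with a limma adjusted p of 0.0515.

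In all, 2 of the 9 genes tested were called higher at the lesion, beside 6.78% of all genes tested (1031 higher and 1953 lower, or 2116 and 2487 with upper-quartile scaling). The median log2 difference of the 9 genes was 0.97, and that of all genes was -0.02. For 7 of the 10 genes every lesion library was above every rostral one, a pattern of 13.0% of all genes tested. Within each of the 4 animals 10 of 10 genes were higher at the lesion than above it, which held for 24.1% of all genes in every animal. The median of the 10 log2 differences was 1.31 and 0.94 in control animals 1 and 2 and 1.30 and 0.71 in stimulated animals 1 and 2.

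These calls depended on which animals were used. Without stimulated animal 2, 8 of the 9 genes were called, all but Aurkb (limma adjusted p = 0.0578), beside 15.7% of all genes higher. Mki67 then differed by 1.69 (SE 0.14, adjusted p = 2.37e-05), Top2a by 1.98 (SE 0.24, adjusted p = 0.00012) and Cdk1 by 1.96 (SE 0.20, adjusted p = 7.42e-05). With control animals only, 6 of 9 were called, beside 8.9% of all genes higher. With the animal as a block Mki67 and Birc5 were again the genes called, beside 8.79%. Leaving out control animal 1, control animal 2 or stimulated animal 1 instead left 0 called. The p-values without stimulated animal 2 are descriptive, because that animal was set apart by these same genes. The direction was the same for the 9 genes under all 13 alternatives.

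**Figure D2:**
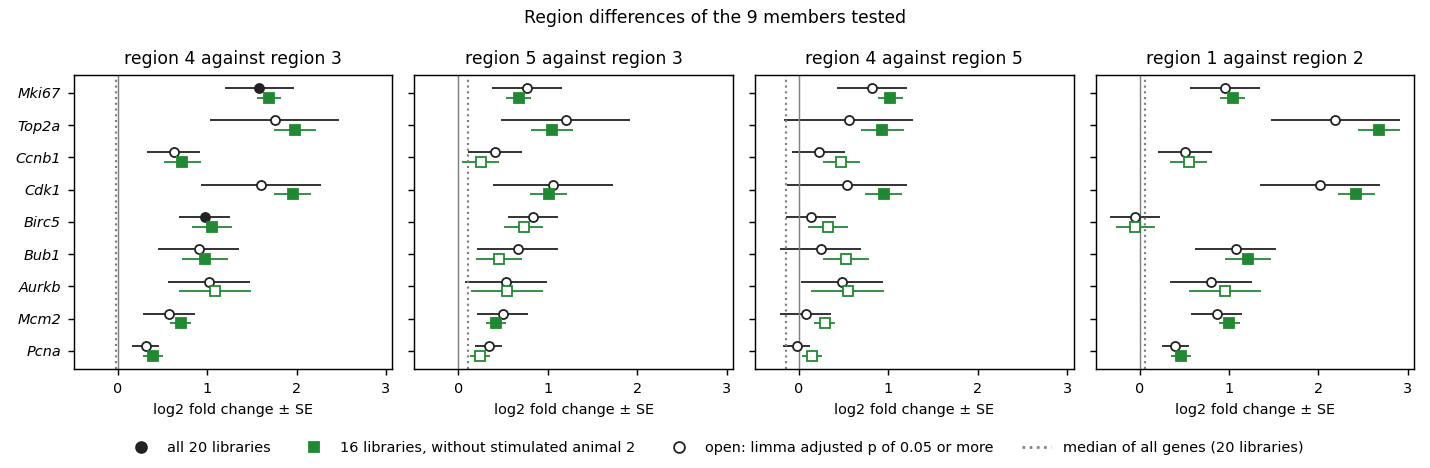
Log2 fold change ± SE (horizontal axes) of the 9 genes tested (vertical axis) in 4 comparisons of regions, from all 20 libraries (circles) and without stimulated animal 2 (squares). Filled symbols have a limma adjusted p under 0.05, and the dotted line is the median of all genes in 20 libraries. In region 4 against region 3 the filled circles are Mki67 and Birc5, and 8 of the 9 squares are filled; Pcna against region 5 and Birc5 between the hemispheres lie near 0 and changed sign under some alternatives.

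In region 5, caudal to the lesion, the mean log2 level of every gene but Pcna lay between those of the other cord regions. Mki67 was at 0.784, 0.701, 0.770 and 1.01 FPKM there, above every rostral library and below every lesion library. It was the only member with every lesion library above every caudal one, a pattern of 1.84% of all genes tested. Cdk1 was at 1.16, 1.16, 0.816 and 1.84 FPKM and Top2a at 1.36, 1.13, 1.10 and 2.03, with stimulated animal 2 highest in both. Pcna at 31.5, 28.4, 28.2 and 33.7 FPKM was level with the lesion.

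Against the rostral cord, 0 of the 9 genes were called higher in region 5 by limma, with 2 at an unadjusted p under 0.05, beside 2.77% of all genes (422 higher and 235 lower, or 435 and 674 with quantile normalization). The log2 differences were 0.34 to 1.2, and Birc5 had the lowest adjusted p, 0.0907. For 8 of the 10 genes every caudal library was above every rostral one, which held for 20.5% of all genes. Within animals 10 of 10 genes were higher in each of the 4, against 31.9% of all genes. In the other 3 animals alone 4 of 9 were called, namely Cdk1, Mcm2, Mki67 and Top2a, beside 5.4% of all genes higher. With the animal as a block 0 of 9 passed, beside 4.05%.

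The lesion against the caudal cord gave 0 of the 9 genes called by limma, with 1 at an unadjusted p under 0.05, beside 0.934% of all genes higher (142 higher and 1074 lower, or 195 and 275 with quantile normalization). Mki67 had the largest log2 difference, 0.82 (SE 0.39, adjusted p = 0.172). Within animals the genes split by animal: 10, 9 and 10 of the 10 genes were higher at the lesion in control animal 1, control animal 2 and stimulated animal 1, but only 2, Mki67 and Aurkb, in stimulated animal 2. The median log2 difference was 0.67, 0.36 and 0.79 in the first 3 animals and -0.54 in stimulated animal 2, while the median of all genes tested in that animal was -0.37. In the other 3 animals alone 3 of 9 genes were called higher at the lesion, Mki67 by 1.02 (SE 0.14, adjusted p = 0.00307), Cdk1 by 0.95 and Top2a by 0.93, beside 2.87% of all genes. With control animals only 0 of 9 passed, beside 0.828%. Pcna was near 0 in this comparison, -0.03, and turned to 0.15 with quantile normalization and 0.14 without that animal.

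The 2 hemispheres were compared to see whether the genes differed under the electrodes, which all 4 animals carried. Of the 9 genes 3, Top2a, Cdk1 and Bub1, were more than 2-fold higher on average under the implant, and no gene passed the threshold in the 20 libraries. Cdk1 was at 0.464, 0.526, 0.633 and 2.36 FPKM in region 1 of control animals 1 and 2 and stimulated animals 1 and 2. In region 2 it was listed at the floor in the first 3 and at 1.37 in stimulated animal 2. Top2a was at 0.801, 0.439, 0.841 and 3.15 FPKM in region 1 and at 0.114, 0.1, 0.1 and 1.89 in region 2. In both genes the opposite white matter was at or near the floor in 3 animals. Stimulated animal 2 was high on both sides, and the hemispheres overlapped for 10 of the 10 genes, while 4.41% of all genes had every library of region 1 above region 2.

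Mki67 was at 0.692, 0.529, 0.617 and 1.81 FPKM in region 1 and at 0.320, 0.289, 0.282 and 1.12 in region 2, and each animal was higher on the implanted side. Mcm2 was at 1.12, 1.36, 1.48 and 2.52 FPKM against 0.629, 0.618, 0.724 and 1.86. Pcna was at 14.7, 15.0, 20.3 and 20.7 FPKM against 12.0, 10.9, 13.1 and 18.0. Both replication genes were higher on the implanted side in 4 of 4 animals. Birc5 was the exception, at 0.926, 0.499, 0.874 and 1.43 FPKM against 0.791, 0.738, 0.762 and 1.49. Its log2 difference of -0.05 became 0.12 without control animal 2.

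Of the 9 genes, 0 were called by limma and 6 had an unadjusted p under 0.05, beside 6.86% of all genes called higher (1043 higher and 267 lower, or 943 and 841 with quantile normalization). The largest log2 differences were 2.19 for Top2a (SE 0.72, adjusted p = 0.0648) and 2.01 for Cdk1 (SE 0.67, adjusted p = 0.0683), both of which depend on the floor in region 2. With the animal as a block, these genes passed, Cdk1 with an adjusted p of 0.0321 and Top2a with 0.0334, beside 9.63% of all genes higher. Without stimulated animal 2, 6 of 9 were called, Bub1, Cdk1, Mcm2, Mki67, Pcna and Top2a, beside 21.6% of all genes higher. With control animals only, 5 of 9 were called, beside 7.37% of all genes higher. Within animals, 9 of the 10 genes were higher under the implant in all 4, a pattern of 22.2% of all genes.

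White matter as a whole was lower than cord for the replication genes and Aurkb. Pcna was at 10.9 to 20.7 FPKM (median 14.9) in the 8 white matter libraries and at 21.9 to 34.6 (median 28.3) in the 12 cord libraries, with no overlap, which held for 16.8% of all genes. The log2 differences were -0.88 for Pcna (SE 0.10, limma adjusted p = 1.77e-07), -1.10 for Mcm2 (SE 0.18, adjusted p = 3.06e-05) and -1.79 for Aurkb (SE 0.30, adjusted p = 2.51e-05). Under each of the 13 alternatives these 3 genes stayed past the threshold. Cdk1, Top2a and Bub1 were also called lower, by 1.45, 1.35 and 0.81 on the log2 scale. Mki67 at -0.51 (adjusted p = 0.0766) and Birc5 at -0.31 (adjusted p = 0.13) were not. Ccnb1 was level at -0.01, and turned to 0.28 with quantile normalization and 0.07 with upper-quartile scaling.

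The 6 genes called lower stand beside 47.1% of all genes called lower (3808 higher and 7169 lower, or 5054 and 6018 with quantile normalization, which moved the median of all genes from -0.18 to -0.04). With the animal as a block Mki67 also passed, with an adjusted p of 0.0424, beside 48.5% of all genes lower. With control animals only 8 of 9 were called, beside 46.7%. Without stimulated animal 2, 8 of 9 were called, all but Ccnb1 (adjusted p = 0.0547), beside 51.1% of all genes lower, and leaving out control animal 1, control animal 2 or stimulated animal 1 left 3. Among single pairs of a white matter and a cord region, region 2 against region 4 had 8 of 9 genes called lower, beside 41.7% of all genes. Region 2 had 7 called lower against region 5 (49.0% of all genes) and 3 against region 3 (36.9%). Region 1, under the implant, had 4 called lower against region 4 (29.9%), 3 against region 5 (39.2%) and 1, Pcna, against region 3 (27.9%). In the 3 animals other than stimulated animal 2, the counts lower for region 2 were 9 against region 4 (47.6%), 9 against region 5 (50.7%) and 7 against region 3 (46.4%). For region 1 they were 8 against region 4 (37.7%), 7 against region 5 (38.3%) and 3 against region 3 (29.5%), with Mki67 called higher in the last.

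Stimulation was compared with its control in each region. No member passed the threshold in any region, and in 2 against 2 animals an exact permutation test of 1 gene cannot give a p below 0.333. Under the electrodes, Aurkb was at 0.535 and 0.433 FPKM in the control animals and at 1.14 and 1.36 in the stimulated ones, and Pcna at 14.7 and 15.0 against 20.3 and 20.7. These 2 genes did not overlap and had similar values in both stimulated animals. Top2a at 0.801 and 0.439 against 0.841 and 3.15, Cdk1, Bub1 and Mcm2 did not overlap either, but stimulated animal 2 was well above stimulated animal 1. For the remaining genes the groups overlapped. The log2 differences of the 9 genes tested were 0.36 to 1.46 with limma adjusted p-values of 0.712 to 0.825, and 2 had an unadjusted p under 0.05, Aurkb and Pcna. Among all 15210 genes limma called 0 in this region and 828 had an unadjusted p under 0.05. Stimulated libraries were above control libraries for 6 of the 10 genes, a pattern of 21.2% of all genes. The median log2 difference was 0.80 with all animals and 0.36 without stimulated animal 2, where Ccnb1 turned to -0.24.

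In the opposite hemisphere the 9 log2 differences were positive, 0.39 to 2.03 (limma adjusted p = 0.949 for each, 0 called and 0 at an unadjusted p under 0.05), and 2 of the 10 genes did not overlap, Mcm2 and Pcna, beside 20.2% of all genes. None of the 10 had both stimulated libraries below both controls, a pattern of 6.77% of all genes. Without stimulated animal 2 only Mcm2 and Pcna stayed positive, by 0.22 and 0.20, and the median of the 9 was -0.05, while Cdk1 was listed at the floor in the 3 remaining libraries. Without stimulated animal 1, Mki67, Top2a and Cdk1 were called, beside 3.5% of all genes called higher, in a fit where the lone stimulated library is assumed to vary like the controls. The difference of the effects between regions 1 and 2, tested within animals, was -0.58 to 0.56 over the 9 genes, with 0 called and 0 at an unadjusted p under 0.05 (limma adjusted p = 0.885 to 0.98). Of the 9 differences 4 were positive with all animals and 9 without stimulated animal 2, with 0 called in both.

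In the cord no member passed the threshold, and the direction depended on the animals used. Rostral to the lesion the 9 genes had a median log2 difference of 0.04, which was 0.10 without stimulated animal 2, -0.13 without stimulated animal 1 and -0.0080 without control animal 2. At the lesion the median was -0.14, and it was 0.24 without stimulated animal 2, 0.094 without control animal 1 and -0.57 without stimulated animal 1. Caudal to the lesion it was 0.13, and it was -0.085 without stimulated animal 2 and 0.43 without stimulated animal 1. In these 3 regions limma called 0 members, and 1, 0 and 0 had an unadjusted p under 0.05. The 1 was Ccnb1 in region 3, at 0.970 and 0.984 FPKM in the control animals and 0.642 and 0.777 in the stimulated ones, with no overlap and a log2 difference of -0.47 (SE 0.14, limma adjusted p = 0.956). Among all genes tested limma called 0 in regions 3 and 4 and 0.0197% in region 5. Stimulated libraries were all above control libraries for 2, 0 and 1 of the 10 genes in regions 3, 4 and 5, beside 5.14%, 12.5% and 18.5% of all genes, and all below for 1, 0 and 0, beside 24.7%, 7.69% and 6.07%. The stimulated animals lay on opposite sides at the lesion: stimulated animal 1 was highest of the 4 for 8 of the 10 genes and stimulated animal 2 lowest for 10 of 10, while 55.1% of all genes tested were lowest in that library.

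**Figure D3:**
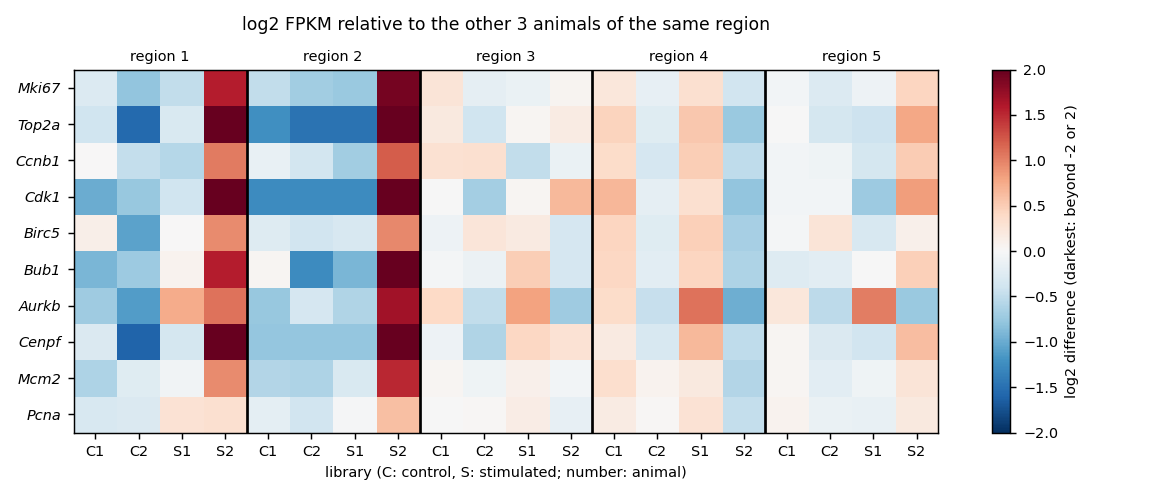
Log2 FPKM of each gene (vertical axis) in each library (horizontal axis, grouped by region) minus the mean log2 FPKM of the other 3 animals in that region, red for higher and blue for lower. Stimulated animal 2 (S2) is above the others in regions 1 and 2 for 10 of 10 genes, by a median of 1.33 and 1.80, and below them in region 4 for 10 of 10, by a median of -0.61.

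The genes varied together across libraries. Over the 20 libraries the Pearson correlation between 2 of the 9 genes had a median of 0.80 over 36 pairs. It was also 0.80 after the mean of each region was removed. Both values include stimulated animal 2, which stood above the others in regions 1 and 2 by a median log2 difference of 1.33 and 1.80. No correlation is given without that animal. Cdk1 with Top2a was among the closest at 0.99. Aurkb was the loosest within regions, with a median correlation of 0.69 with the other 8 genes. The libraries share animals and tissue blocks, and these values describe the table without a test.

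Genes most like the average of the 9 (mean of each gene's log2 FPKM scaled over the 20 libraries) were Mapkapk2, with a Pearson correlation of 0.99, Mob1a with 0.99, and Sh3bp2, Hmha1, Sowahc, Athl1, Kif11 and Btk with 0.98 to 0.99. Kif11 is a mitotic motor, and Btk a kinase of B cells and myeloid cells. Mapkapk2 was at a mean of 19.5 FPKM at the lesion, 13.3 in the rostral cord and 10.4 in the opposite white matter. The most unlike were Ntrk3, Otof and Grm7, each at -0.90, of which Ntrk3 is a neurotrophin receptor and Grm7 a glutamate receptor of neurons. In all, 915 other genes had a correlation over 0.9, and of the 50 most like only 2 were on the S or G2 and M phase lists.

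Some marker sums moved with the 10 genes in the same libraries. At the lesion the microglia and macrophage genes summed to 891 and 576 FPKM in the control animals and to 758 and 382 in stimulated animals 1 and 2, against 171 to 257 in the rostral cord. Of the 12 genes 5 were called higher at the lesion, beside 6.78% of all genes, with a median log2 difference of 1.55. The count was 9 of 12 with quantile normalization (12.7% of all genes) or upper-quartile scaling (13.9%) and 11 of 12 without stimulated animal 2 (15.7%). Cd68, a lysosomal protein of phagocytes, had a log2 difference of 3.58 (adjusted p = 0.0035). The lymphocyte sum was 10.2 to 41.4 FPKM at the lesion and 1.87 to 10.7 in the rostral cord, carried by Cd4 and Cd8a, while Cd3e, Cd3g and Ms4a1 were at the floor in the 4 lesion libraries. The sum of the oligodendrocyte progenitor list was level between lesion and rostral cord, at 282 to 346 and 297 to 349 FPKM, with 1 of 8 genes called. It was at 62.5 to 174 FPKM in the white matter blocks. Such a sum does not measure how many progenitors were present or dividing. The astrocyte, fibroblast and Schwann cell sums were also higher at the lesion, at 2328 to 3142, 50.1 to 85.7 and 95.1 to 134 FPKM. In the rostral cord they were at 1545 to 2017, 33.7 to 47.8 and 31.5 to 80.5. Spinal and cortical neuron sums were lower, at 84.3 to 99.9 and 5.60 to 8.17 against 112 to 128 and 12.0 to 24.9. Sums of oligodendrocytes, ependymal cells, endothelial cells, neutrophils and neuroblasts overlapped between the regions.

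Between the hemispheres, 6 of 6 fibroblast genes and 5 of 7 oligodendrocyte genes were called higher under the electrodes. So were 5 of 8 oligodendrocyte progenitor genes, 4 of 5 Schwann cell genes and 2 of 12 microglia and macrophage genes. These counts stand beside 6.86% of all genes called higher. Sox10 is on both the progenitor and the Schwann cell list. The Schwann cell sum was 9.07 to 12.9 FPKM under the electrodes and 95.1 to 134 at the lesion. The count for that list therefore does not show Schwann cells under the electrodes. Without stimulated animal 2 the microglia and macrophage count was 11 of 12, beside 21.6% of all genes higher, and the other lists had 6 of 6, 7 of 7, 7 of 8 and 3 of 5. The sum for microglia and macrophages under the electrodes was 310, 225, 382 and 913 FPKM in control animals 1 and 2 and stimulated animals 1 and 2. Genes of neuroblasts and of progenitors of the subventricular zone summed to 9.29 to 15.0 FPKM in the white matter and were lowest in stimulated animal 2, where the 10 genes were highest. Only 5 of the 10 measured genes of that list reached 1 FPKM in any library. Dlx1, a transcription factor among them, was at the floor in the cord and at 1.39 to 3.03 FPKM in the white matter. These blocks also held RNA of cortical neurons, so this single gene does not show which cells were present. The part of any of these cell types in the levels of the 10 genes was not tested.

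**Figure D4:**
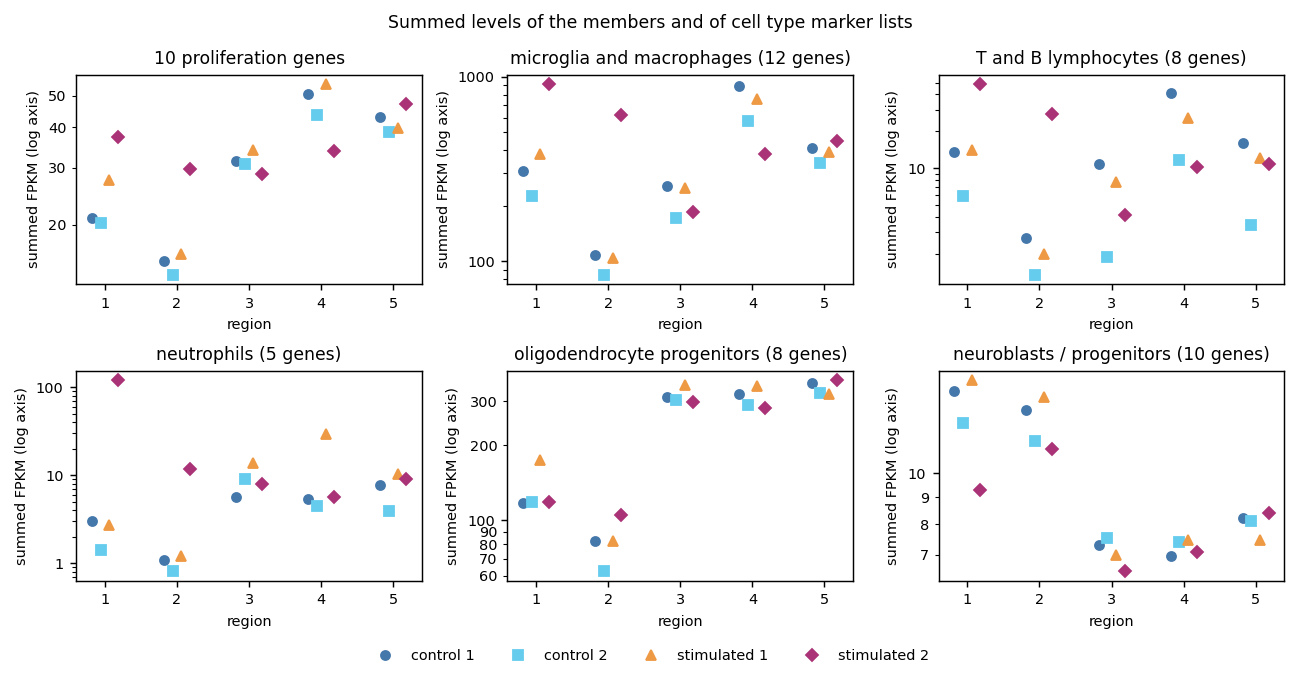
Summed FPKM (vertical axes, log scale) of the 10 genes and of 5 marker lists in the 5 regions (horizontal axes), with 1 point per library and colour and shape giving the animal. The microglia and macrophage sum is highest at 913 in region 1 of stimulated animal 2, where the 10 genes are also highest among the white matter libraries, and oligodendrocyte progenitor sums are level across the cord.

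Other genes of the cell cycle were described by lists, beside which the median log2 difference of all genes between lesion and rostral cord was -0.02. Of 40 genes tested on the G2 and M phase list, 7 were called higher and 1 lower, with a median of 0.88. Of 33 on the S phase list, 3 were called higher and 0 lower, with a median of 0.13. Both counts stand beside 6.78% of all genes called higher, to which the S phase share is near. With quantile normalization the counts higher were 11 and 5, beside 12.7% of all genes, and with upper-quartile scaling 10 and 7, beside 13.9%. Members counted on the lists are 2 of those 7 and 0 of the 3. The counts higher were 23 of 40 and 10 of 33 without stimulated animal 2, beside 15.7% of all genes. The remaining lists had 0 to 4 genes called higher in 20 libraries.

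Among mitotic genes Gas2l3, which links actin and microtubules, rose from 0.529 to 2.00 FPKM on average between rostral cord and lesion (log2 difference 1.91, SE 0.44, limma adjusted p = 0.00614). Ttk, the checkpoint kinase, rose from 0.478 to 1.34 FPKM (log2 1.52, adjusted p = 0.0433). Tpx2, which activates the spindle kinase Aurka, rose from 0.767 to 1.52 FPKM (log2 0.96, adjusted p = 0.000869). It was at 2.1 FPKM in region 1 and 1.89 in region 2, above its lesion level. Smc2, a condensin subunit, rose from 4.91 to 6.48 FPKM (log2 0.39, adjusted p = 0.0192). Rangap1, the only gene of the G2 and M phase list called lower, went from 29.8 to 24.6 FPKM (log2 -0.28, adjusted p = 0.0337). It is an activator of the Ran GTPase that serves nuclear transport in all cells, and it was named after its values were seen.

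On the S phase list the called genes were Cdca7 (log2 1.04, adjusted p = 0.0498), Ung, a glycosylase of DNA repair (log2 0.67, adjusted p = 0.0278), and Atad2 (log2 0.62, adjusted p = 0.00475). Atad2 was at 5.10 FPKM in region 1 and 4.57 in region 2, above its lesion mean of 2.65. None of the 11 MCM helicase and origin genes tested was called by limma, with a median of 0.42. This became 6 of the 11 without stimulated animal 2, where the share of all genes called higher went from 6.78% to 15.7%.

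Among cyclins and their kinases 4 of 11 were called higher, and the counts in this paragraph stand beside 6.78% of all genes called higher. Ccna2, the cyclin of S and G2 phase, rose from 0.401 to 1.15 FPKM (log2 1.5, adjusted p = 0.0311). Cdk6 rose from 1.08 to 2.50 FPKM (log2 1.22, adjusted p = 0.00245) and Ccnd2 from 11.1 to 20.5 FPKM (log2 0.88, adjusted p = 0.000914), both of which act in G1. Ccnd2 was at 19.2, 18.8 and 20.8 FPKM in regions 1, 2 and 5, so that only the rostral cord stood low. Ccne1, the only 1 called lower, went from 2.32 to 1.66 FPKM (log2 -0.49, adjusted p = 0.0149), and it too was named after its values were seen. Inhibitors of these kinases were higher as well: Cdkn2c rose from 1.00 to 2.41 FPKM (log2 1.2, adjusted p = 0.00273) and Cdkn2b from 0.380 to 1.03 FPKM (log2 1.42, adjusted p = 0.00425), 2 of the 6 tested. Cdkn2b was at 1.05 FPKM in region 5, level with the lesion. Of 10 cell cycle transcription factors 3 were called higher. Among them Rbl1, a pocket protein of the DREAM complex, rose from 0.943 to 2.25 FPKM (log2 1.23, adjusted p = 0.0216) and Rb1 from 8.12 to 10.2 FPKM (log2 0.33, adjusted p = 0.0459). Tpx2, Cdk6 and Ccnd2 stayed past the threshold under all 13 alternatives, and each of the other genes named from these lists lost its call under at least 1.

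**Figure D5:**
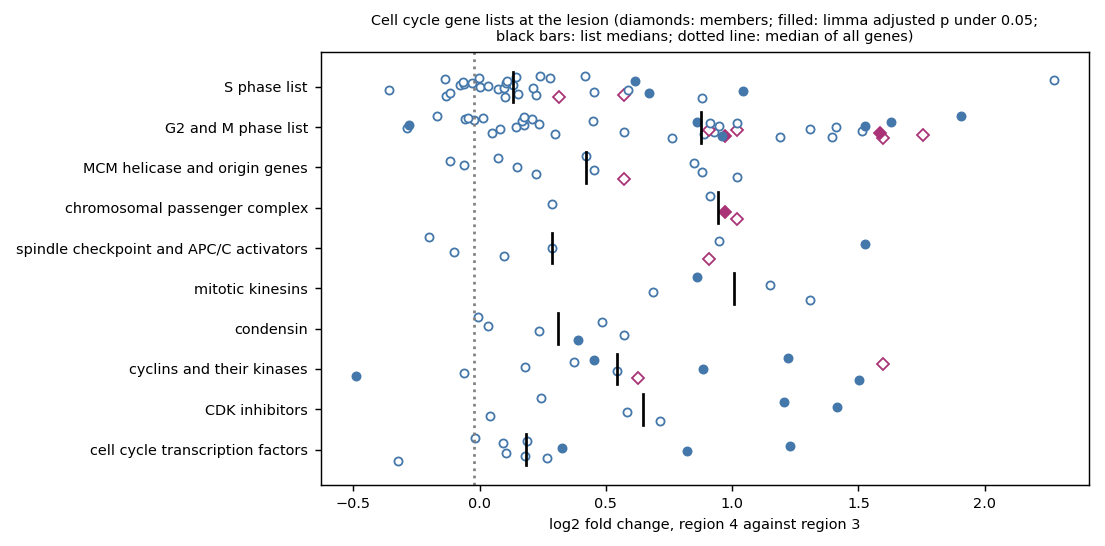
Log2 fold change of region 4 against region 3 (horizontal axis) of each tested gene on 10 cell cycle lists (vertical axis), with the 9 genes tested of this report as diamonds, filled symbols for a limma adjusted p under 0.05, black bars at the list medians and a dotted line at the median of all genes, -0.02. The median is 0.88 for the G2 and M phase list and 0.13 for the S phase list.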

How the data were processed

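Total RNA libraries (TruSeq stranded, ribosomal RNA depleted) were read in paired ends. Per the methods and processing notes, the authors checked reads with FastQC and MultiQC 1.6, aligned them with TopHat2 2.1.0 to Rnor6 and made FPKM with Cufflinks 2.2.1. The FPKM values deposited by the authors have 0.1 as their minimum, at which 39.7% of values lie; the annotation version and strand setting are not given in the sources used here. 0 columns of the table lacked a sample. The animals were separate, and each region of an animal is 1 library.

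Log2 FPKM of the 15210 genes with at least 1 FPKM in any library was fitted with limma 3.58.1 (R 4.3.3; lmFit, eBayes with trend), with 1 mean per region over 20 libraries, or with stimulated against control in the 4 libraries of a region. The effect in region 1 was set against that in region 2 on differences within animals. P-values are two-sided and Benjamini-Hochberg adjusted over all genes tested, with a threshold of 0.05. The procedure was tested on simulated data. Alternatives were log2(FPKM + 1), no filter, at least 1 FPKM in 2 libraries, quantile normalization, upper-quartile scaling, eBayes without trend, the animal or number as block, control animals only, 10 means, and leaving out each animal. Regions of 1 animal are paired by the titles: deviations from region means correlated at 0.413 to 0.768 between regions 1 and 2, 0.136 to 0.255 between regions 4 and 3, and -0.088 to 0.105 between regions 4 and 5.

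The genes and lists were chosen with earlier results of these data known. From each list up to 3 genes were named, those with the largest change between regions 4 and 3 past the threshold and a mean of at least 1 FPKM in either. Likeness was the correlation with the mean scaled level of the 9 genes, from which the 8 highest and 3 lowest genes were named. Other tools were Python 3.11.15, pandas 2.3.3, scipy 1.17.1 and matplotlib 3.10.9.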

Additional observations from a re-analysis of the deposited data

Results flagged for a closer look

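Over the 10 genes and 5 regions, 50 groups of 4 libraries were tested for a library far from the others with Dixon's criterion, and 11 were past its 4-sample critical value, where chance gives about 1 in 20 groups. In each of the 11 the library was the highest of its group and came from stimulated animal 2, in region 1 or 2. In region 1 these were Mki67 at 1.81 FPKM, with the nearest other animal at 0.692, Top2a at 3.15 with the nearest at 0.841, Cdk1 at 2.36 with the nearest at 0.633, and Cenpf at 0.770 with the nearest at 0.207. In region 2 Mki67 was at 1.12 with the nearest at 0.320, Top2a at 1.89 with the nearest at 0.114, and Cdk1 at 1.37 with the nearest at the floor of 0.1. Also in region 2, Birc5 was at 1.49 with the nearest at 0.791, Aurkb at 1.07 with the nearest at 0.374, Cenpf at 0.493 with the nearest at 0.1, and Mcm2 at 1.86 with the nearest at 0.724. For Cdk1 and Cenpf in region 2 the other 3 libraries were tied at the floor, so that any value above it passes, and these 2 do not count against that chance rate, which leaves 9. The genes vary together, so that the 9 are not separate events.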

How the results depend on the processing

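The table holds no counts, so precision is limited by 4 animals and, for genes near the floor of 0.1 FPKM, by an unknown depth. Of the 9 genes, those called between regions 4 and 3 numbered 2, beside 6.78% of all genes called higher, and 4 with log2(FPKM + 1) (7.86%), 1 with no filter on low values (2.42%) and 6 with control animals only (8.9%). Leaving out 1 animal at a time gave 0 to 8 genes for region 4 against region 3, 0 to 3 for region 4 against region 5, 0 to 4 for region 5 against region 3, 0 to 6 for region 1 against region 2 and 3 to 8 for white matter against cord. The highest value in each of these came without stimulated animal 2, and the share of all genes called the same way moved with the counts, from 0.874% to 15.7%, from 0.0% to 2.87%, from 0.237% to 5.4%, from 0.0855% to 21.6% and from 40.1% to 51.1%. Over the other 6 region pairs 26 calls became 18 to 44 when an animal was left out and 42 with control animals only, beside 58.4% of all genes called either way, 47.2% to 64.0% and 54.1%. For region 1 against region 2 the count of 0 became 2 with the replicate block (9.63%) and 5 with control animals only (7.37%). For stimulation in region 2 it ranged from 0 to 3, the latter without stimulated animal 1 (3.5%). The cause of these changes was not tested.

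Of the values for single genes in the region comparisons and in stimulation in regions 1 and 2, these turned direction. Medians for stimulation in regions 3 to 5 also turned when an animal was left out, as given above. Pcna between regions 4 and 5 turned to 0.15 with quantile normalization, 0.13 with upper-quartile scaling and 0.067 with control animals only, and ranged from -0.13 to 0.14 as animals were left out, 0.14 without stimulated animal 2. In the same comparison Birc5 ranged from -0.064, without stimulated animal 1, to 0.32. Birc5 between regions 1 and 2 ranged from -0.14 to 0.12 as animals were left out, the latter without control animal 2, and was -0.30 with quantile normalization. Ccnb1 between white matter and cord turned to 0.012 with log2(FPKM + 1), 0.28 with quantile normalization and 0.073 with upper-quartile scaling, and it ranged from -0.30 without stimulated animal 2 to 0.12 without stimulated animal 1. It was also positive without control animal 1 (0.061) or 2 (0.090). Stimulation differences ran from their value without stimulated animal 2 to that without stimulated animal 1: for Ccnb1 in region 1 from -0.24 to 0.96, and in region 2 for Mki67 from -0.11 to 1.88, Top2a from -0.093 to 4.15, Ccnb1 from -0.33 to 1.11, Birc5 from -0.0049 to 0.96, Bub1 from -0.22 to 2.05 and Aurkb from -0.046 to 1.67.

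Control and stimulated animals with the same number are different animals that share only that number. Their deviations correlated at -0.21, -0.10, -0.11, 0.32 and -0.16 in regions 1 to 5, which by itself does not settle whether they are paired. With this replicate block 0 genes were called for stimulation in each region, and 0 with the numbers crossed, a fit chosen after seeing the data. With the animal as replicate block, the count for region 4 against region 3 stayed at 2.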
